A study of Mus musculus with 28 samples.

Results

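The step from stages VII-VIII to stages IX-X of the mouse seminiferous cycle was examined in sorted Sertoli cells, by setting the 2 libraries labelled group E (IX-X) against the 2 labelled group D (VII-VIII). These 4 libraries, chosen by their stage labels, belong to the 10 sorted libraries and the 28 libraries of the series. All of them hold polyadenylated RNA. Both groups came from mice heterozygous for a red fluorescent reporter and positive for Amh-Cre, a recombinase driven by the anti-Müllerian hormone promoter, which is active in Sertoli cells, and red cells were sorted from their testes. The labels name the sorted samples as Sertoli cells, but their RNA protocol calls the sorted material germ cells. The strain label of D and E is C57BL/6 x 129s4/SvJae. Spermatogenesis had been synchronised in both groups with WIN 18,446, an inhibitor of retinoic acid synthesis, given for 7 days and followed by retinoic acid, and the animals were killed between days 42 and 50. The remaining sorted groups A (XI-XII), B (I-III) and C (IV-VI), 2 libraries each, were prepared in the same way. Group A replicate 1 bears a strain label that differs from that of the other sorted libraries. A further 18 libraries hold RNA of whole testes from NANOS2 KO animals on a CD1 background, which have no germ cells, after the same synchronisation.

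Sertoli cells are the somatic cells of the seminiferous tubule, and each holds several generations of germ cells at once. At the end of stages VII-VIII the mature spermatids are released into the lumen and the residual cytoplasm they shed is taken up by the Sertoli cell, while the next generation of spermatids begins to elongate in IX-X. Androgen acts on spermatogenesis through Sertoli cells, and their responses to it are known to be strong around stages VII-VIII.

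The libraries of group E held 5279746 and 4556910 counts and those of group D 2686399 and 3826087, within 1901743 to 5279746 for all sorted libraries, so that 3 counts, the floor used here, equal 0.568 and 0.658 CPM (counts scaled to the library total) in group E and 1.12 and 0.784 CPM in group D. Such floors cover counting error only. Mitochondrially encoded genes took 11.4 and 6.06% of the counts in group E, and 12.5 and 4.61% in group D. The 31 genes listed as the Sertoli core (Sox9, Wt1, Fshr and others) took 1.30 to 1.47% of the counts in group E and 1.46 to 1.51% in group D. Germ cell transcripts were also present. The 26 genes of elongating spermatids took 1.55 to 1.89% of the counts in group E and 0.520 to 0.712% in group D, so the sorted material of group E held more counts of these genes than of the Sertoli core. In such bulk samples, fewer cells of a type and less RNA per cell cannot be told apart. The labels do not say whether the libraries of a group came from separate animals, so p-values measure the spread between these samples, which may be technical.

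At the step, transcripts of spermatid nuclear proteins (Tnp1, Tnp2, Prm1, Prm2), of the testis protease Prss58 and of Espn and Gas6, which germ cell-free testes also hold, were higher in group E. Androgen-responsive genes (Ndrg4, Rhox5) and a phosphatidylcholine enzyme (Pcyt1b) were lower. The calls of Prm2, Espn, Gas6 and Rhox5 depended on which library of group E or D was left out or kept. Of 14331 genes tested with edgeR's quasi-likelihood test, 510 were called at a Benjamini-Hochberg adjusted p under 0.05, which is 3.56% of those tested. Of these, 285 genes were higher in group E (1.99%) and 225 were lower (1.57%). The change was at least 2-fold for 508 of the 510, and the smallest called change was 0.96 on the log2 scale. In all 510 the libraries of group E lay wholly above or wholly below those of group D. Such separation in a called gene therefore adds nothing to its call, and its share over all genes tested was not counted. The median over all genes tested was -0.02 on the log2 scale. Leaving out a library of either group left far fewer calls: 38 without E replicate 1, 58 without E replicate 2, 50 without D replicate 1 and 117 without D replicate 2. Leaving out a library of group A gave more, 842 without replicate 1, which bears a different strain label, and 833 without replicate 2. Scaling by the Sertoli core genes, a choice added after the data had been seen, gave 357 calls. Under it 14 of the genes that the naming rule takes lost their call, with adjusted p from 0.0506 to 0.115, and so did Gsg2 (0.0914). The 14 were Dnaic2, Mapk13, Nutm1, Dnah3, Jam2, Pls3, Pvrl3, Lama3, Prss55, Jag1, Gdpd1, Stmn1, Etv5 and Adam3.

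**Figure D1:**
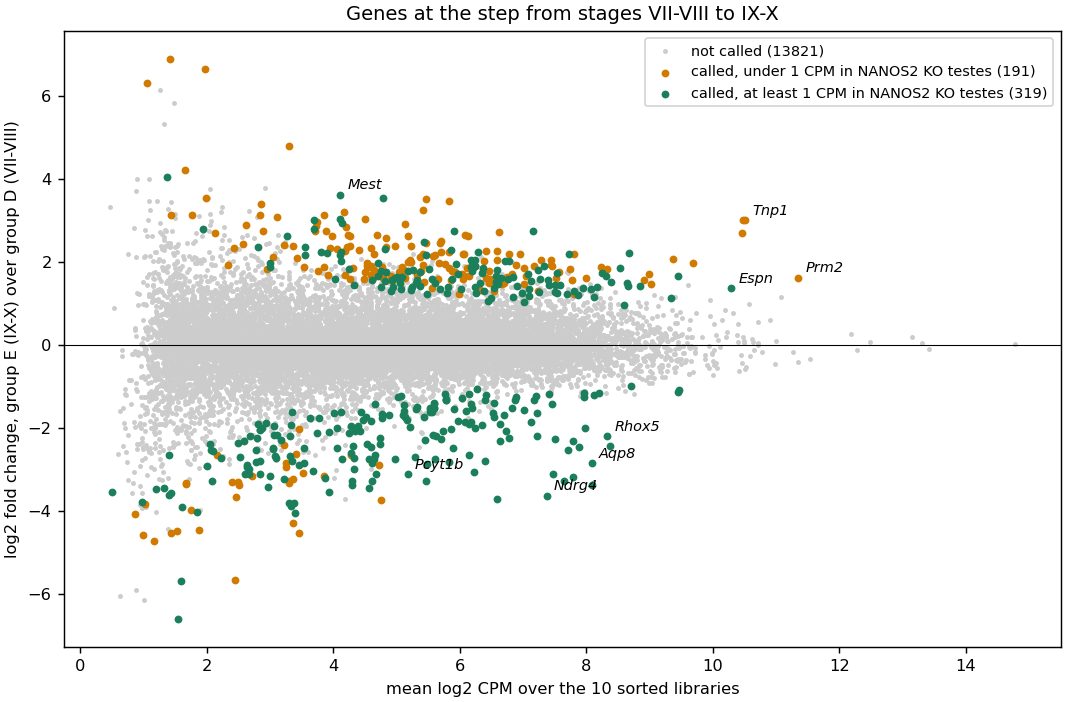
Each point is 1 of 14331 genes. The x axis gives the mean log2 CPM over the 10 sorted libraries and the y axis the log2 fold change of group E over group D. Called genes with a mean of at least 1 CPM in NANOS2 KO testes are green and those under 1 CPM there are orange; the 159 orange genes above 0 outnumber the 32 below 0.

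The plot of all genes splits the calls by whether germ cell-free testes hold the transcript, measured as the mean CPM over the 18 NANOS2 KO libraries, which took no part in the contrast. Of the 285 genes that rose, 159 (55.8%) were under 1 CPM in NANOS2 KO testes, and 66 of them had no read there. Of the 225 genes that fell, 32 (14.2%) were under 1 CPM, a share close to the 14.8% of all genes tested. Seen the other way, among the 2117 genes under 1 CPM in NANOS2 KO testes 7.51% rose and 1.51% fell, with a median log2 fold change of 0.52. Among the 12214 genes at 1 CPM or more 1.03% rose and 1.58% fell, with a median of -0.05. A gene made by both germ and somatic cells falls into the second class, and whole testis also holds Leydig, peritubular, blood and vessel cells. Rises under 1 CPM in NANOS2 KO were 81.2% of the rises without E replicate 1, 64.4% without E replicate 2, 84.6% without D replicate 1 and 74.2% without D replicate 2. The same share of the falls was 7.69% without E replicate 2 and 8.11% without D replicate 1.

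Genes of elongating spermatids made up the largest called group among the lists examined. Of the 26 members, all tested, 10 rose and none fell, against 1.99% of all genes that rose, and their median log2 fold change was 1.20, against -0.02 over all genes. The fold change was above 0 for 25 of the 26. The list was chosen with earlier results of these data known, and it holds Tnp1 and Prm1, set beforehand as markers of the step. Its counts are therefore descriptions. Tnp1, which encodes transition protein 1, a nuclear protein that takes the place of histones in elongating spermatids, had 1599 and 1753 CPM in group E and 180 and 236 CPM in group D. Prm1, which encodes protamine 1, the protein that packs sperm DNA, had 1103 and 1440 CPM in group E and 130 and 183 CPM in group D. In both genes each library of group E stood well above each library of group D. In GRCm38 with GENCODE M21, Tnp1 is a protein-coding gene at chr1:73015074-73015909 on the minus strand. The increase was 8.05-fold for Tnp1 (log2 fold change 3.01, SE 0.27, adjusted p = 0.000688) and 8.11-fold for Prm1 (3.02, SE 0.31, adjusted p = 0.00121).

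The second transition protein, Tnp2, had 1576 and 2069 CPM in group E and 167 and 391 CPM in group D, a 6.51-fold rise (adjusted p = 0.00381). Prm2, the second protamine, had 1838 and 2555 CPM in group E and 525 and 905 CPM in group D. Its log2 fold change of 1.62 passed narrowly (adjusted p = 0.0472). H2afb1, an X-linked testis histone variant of the H2A family, had 92.6 and 72.3 CPM in group E and 15 and 10.2 CPM in group D. It was 6.59-fold higher (adjusted p = 0.00435). The other called members were Akap4, a scaffold of the sperm tail's fibrous sheath (log2 fold change 1.97), Hmgb4 (2.19), the spermatid linker histone H1fnt (1.83), Spem1 (1.62) and Gsg2 (1.23). Among members that did not pass were the tail genes Odf1 at 1.04 and Odf2 at 1.17, and Tekt4 at -0.50. Tnp1, Prm1 and Tnp2 were called whichever library was left out. The list held 3 calls without E replicate 1, 5 without E replicate 2, 4 without D replicate 1 and 8 without D replicate 2. Prm2, Spem1 and Gsg2 were called in none of those 4 fits, with adjusted p from 0.0917 to 0.283. H2afb1 had 0.0536 without E replicate 1 and 0.0607 without D replicate 2, and Akap4, Hmgb4 and H1fnt had 0.0536 to 0.153 without E replicate 1 or D replicate 1. Hmgb4 also had 0.0614 and H1fnt 0.0845 without E replicate 2. Prm2 had 0.0513 with RLE scaling, 0.0514 without B replicate 1 and 0.0517 without B replicate 2.

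Promoters of the protamine and transition protein genes are shown because these genes gave the highest called levels of the step and lie, for Prm1, Prm2 and Tnp2, in 1 cluster on chromosome 16. In spermatids the activator CREM is known to act through cyclic AMP response element-like sequences in the Tnp1 and Prm1 promoters. Each sequence below is the 100 bases upstream of the RefSeq start on the minus strand of GRCm38.p6, written 5′ to 3′, with motif letters in capitals: TGATGTCA in Tnp1 (chr1:73015900-73015999), TGACTTCA in Prm1 (chr16:10796824-10796923), and TATATA in Prm2 (chr16:10792106-10792205) and in Tnp2 (chr16:10788656-10788755).
Tnp1: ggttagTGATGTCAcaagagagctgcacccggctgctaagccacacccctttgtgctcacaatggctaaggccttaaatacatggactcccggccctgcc
Prm1: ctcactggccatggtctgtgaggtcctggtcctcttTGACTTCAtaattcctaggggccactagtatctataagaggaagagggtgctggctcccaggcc
Prm2: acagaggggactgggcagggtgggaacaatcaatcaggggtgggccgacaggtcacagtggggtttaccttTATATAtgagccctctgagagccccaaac
Tnp2: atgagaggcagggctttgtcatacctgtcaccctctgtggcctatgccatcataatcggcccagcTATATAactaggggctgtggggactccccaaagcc

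The motifs start 94 bases upstream of the start in Tnp1, 64 in Prm1, 29 in Prm2 and 35 in Tnp2. TGATGTCA and TGACTTCA, close variants of the cyclic AMP response element TGACGTCA, were chosen for counting after the Tnp1 and Prm1 promoters had been read. They were searched on both strands of 250 bases upstream of the start, and none of the 3 overlaps TATATA. TGATGTCA stood in 21 of the 104 promoters of genes that rose and were under 1 CPM in NANOS2 KO testes (20.2%). It stood in 6.48% of the 108 promoters of rising genes at 1 CPM or more, in 3.18% of the 157 promoters of falling genes, and in 2.76% of the 10127 promoters of all genes tested. TGACTTCA stood in 2.88, 3.7 and 0.637% of these 3 sets and in 1.25% of all promoters. TGACGTCA itself stood in 0.962, 1.85 and 1.27% of the sets and in 3.11% of all. TATATA stood in 6.73, 3.7 and 2.55%, against 2.74% of all. AGAACA, a half-site bound by steroid receptors, stood in 16.3, 22.2 and 14% of the sets, against 13.2% of all. These matches are descriptions of letters, not of binding. No share was counted over all genes under 1 CPM in NANOS2 KO testes, whether they rose or not. Whether the 20.2% goes with the rise or with that class of genes was not tested.

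Other transcripts under 1 CPM in NANOS2 KO testes rose too. Prss58, a trypsin-like protease gene, had 92.4 and 80.0 CPM in group E and 8.80 and 6.88 CPM in group D, and was listed at 0 in all 18 NANOS2 KO libraries. It was 11-fold higher (adjusted p = 0.00187). Cstl1, a cystatin-like gene, had 52.9 and 65.2 CPM in group E and 4.77 and 7.39 CPM in group D, a 9.51-fold rise (adjusted p = 0.00187). Defb33, of the beta-defensin family, had 14.6 and 16.5 CPM in group E and 1.47 and 1.78 CPM in group D, where the values rest on 4 and 7 counts. All 3 genes stood apart between the groups, as did all 510 called genes. Their log2 fold changes were 2.99 or more whichever library was left out. The median of the 13 listed testis serine proteases was 1.16, against -0.02 over all genes. Of these 13, 2 rose and none fell, against 1.99% of all genes that rose. The second was Prss55, with 92.8 and 102 CPM in group E and 19.8 and 41.0 CPM in group D (adjusted p = 0.0274). Prss55 passed without D replicate 2 and had an adjusted p of 0.161 to 0.223 without any 1 of the other 3 libraries. Prss37, Prss51 and Prss52 were at 2.02, 1.84 and 1.95 on the log2 scale and did not pass. Near-identical Prss copies can share reads, and the sources used here do not say how such reads were counted.

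Lists of earlier germ cells held few calls. Of 25 round spermatid genes none was called, with a median of -0.22, and their share of the counts was 0.155 to 0.194% in group E and 0.101 to 0.171% in group D. Tssk2, a spermatid kinase gene, was at 1.33 (adjusted p = 0.0751) and the actin-like Actl7b at -0.95 (adjusted p = 0.478). Of 20 genes of pachytene spermatocytes 1 rose, Adam3, a sperm surface gene, with 272 and 172 CPM in group E and 73.0 and 77.5 CPM in group D (adjusted p = 0.0239). The list's median was 0.52. Of 23 genes of early meiosis none was called, with a median of -0.23; the cohesin gene Stag3 was at 0.01 and the synaptonemal Syce1 at 0.48. Of 16 spermatogonial genes 1 rose, Etv5, an ETS transcription factor that Sertoli cells also make. It had 192 and 122 CPM in group E, 62.0 and 66.5 CPM in group D, and a median of 109 CPM in NANOS2 KO testes. Adam3 and Etv5 were called in no fit that left out 1 library of group E or D, with adjusted p from 0.0562 to 0.297.

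Nutm1 and Dnah3 are falling genes under 1 CPM in NANOS2 KO testes. Nutm1, known for histone acetylation in spermatids, had 4.08 and 2.71 CPM in group E and 18.7 and 32.1 CPM in group D (adjusted p = 0.0398). Dnah3, an axonemal dynein heavy chain, had 4.08 and 5.62 CPM in group E and 17.6 and 43.3 CPM in group D (adjusted p = 0.0457). The group D libraries stood apart from each other by more than the group E libraries did. Neither gene passed with any 1 of the 4 libraries left out, with adjusted p from 0.0863 to 0.371, and Dnah3 also had 0.0577 without C replicate 1 and 0.0551 without C replicate 2. With limma Dnah3 had 0.0764 on log2(CPM + 1) and 0.0809 on log2(CPM + 0.1). Among 24 sperm tail genes 1 rose, Dnaic2, an intermediate chain of axonemal dynein, with 48.2 and 44.8 CPM in group E and 4.40 and 8.92 CPM in group D (adjusted p = 0.0356). It reached 4.01 CPM as a median in NANOS2 KO testes, and its adjusted p was 0.143 to 0.247 with a library of either group left out.

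**Figure D2:**
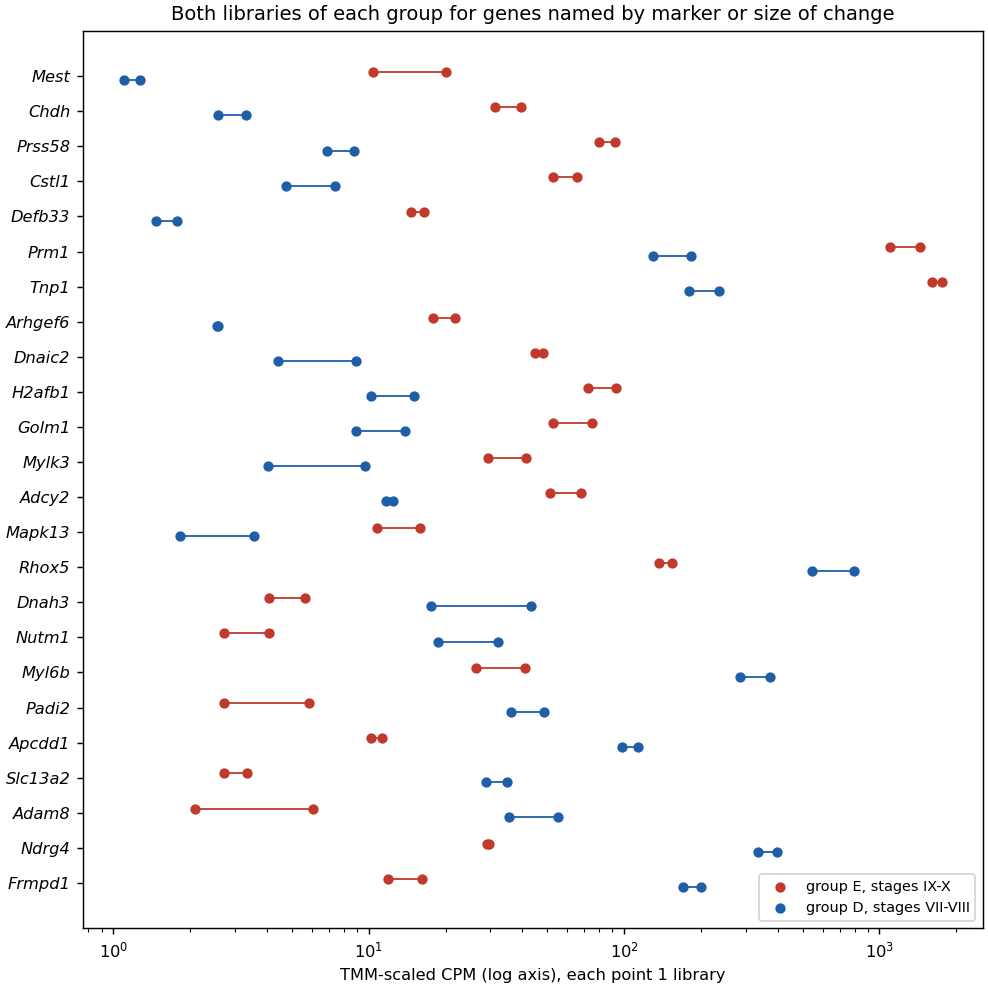
Rows are marker genes and genes named by size of change. The x axis gives TMM-scaled CPM on a log axis, and each point is 1 library, group E in red above group D in blue. The 2 groups do not overlap in any row, which held for all 510 called genes. Frmpd1 lies at 16.1 and 11.9 CPM in group E and at 170 and 200 CPM in group D.

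Among androgen-responsive genes, 3 of the 11 tested fell and none rose, against 1.57% of all genes that fell, with a median of -1.12. Of the 3, Ndrg4 and Rhox5 had been set beforehand as markers of the step. The list was chosen with earlier results of these data known, so its count is a description and carries no support of its own. Ndrg4 (chr8:95676980-95715119, plus strand) and Rhox5 (chrX:37804842-37808876, plus strand) are protein-coding in GENCODE M21. Ndrg4, of the N-myc downstream regulated family, had 29.6 and 29.2 CPM in group E and 336 and 395 CPM in group D. It was 12.4-fold lower in group E (log2 fold change -3.64, SE 0.34, adjusted p = 0.000688). In NANOS2 KO whole testes its unscaled CPM had a median of 24.3 and ran from 7.03 to 61.3. Rhox5, a homeobox gene that androgen switches on in Sertoli cells, had 137 and 153 CPM in group E and 545 and 793 CPM in group D. It was 4.61-fold lower (log2 fold change -2.21, SE 0.32, adjusted p = 0.00435), and its NANOS2 KO median was 77.3 CPM. Gsta2, a glutathione transferase, had 14.4 and 22.5 CPM in group E and 75.2 and 80.8 CPM in group D (adjusted p = 0.00522). The protease Corin, at -1.12, and the protease inhibitor Eppin, at -1.09, did not pass. Ndrg4 was called whichever library was left out. Rhox5 had an adjusted p of 0.0849 without E replicate 1 and 0.0562 without E replicate 2, and Gsta2 of 0.12 without E replicate 1.

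Hsd17b1, which converts estrone to estradiol and was listed with the Sertoli core, had 1.95 and 1.25 CPM in group E and 17.2 and 37.0 CPM in group D, where the values rest on 47 and 145 counts. It was 16.7-fold lower in group E (adjusted p = 0.00683). Hsd17b1 passed without D replicate 1 and had an adjusted p of 0.0671 to 0.109 without any 1 of the other 3.

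The plot of both libraries of each group shows large falls among genes that NANOS2 KO testes also hold. Frmpd1, a FERM and PDZ domain protein gene, was 13.2-fold lower (adjusted p = 0.00142). Adam8, a membrane metalloprotease, had 6.03 and 2.08 CPM in group E and 55.0 and 35.4 CPM in group D. Myl6b, a myosin light chain, had 41.0 and 26.2 CPM in group E and 285 and 373 CPM in group D, a 9.78-fold fall (adjusted p = 0.00227). In these genes the lowest library of group D was above the highest of group E by several fold. Slc13a2, a sodium-coupled dicarboxylate transporter, was 10.4-fold lower, Apcdd1, an inhibitor of Wnt signalling, 9.81-fold lower, and Padi2, which converts protein arginine to citrulline, 9.78-fold lower. Frmpd1 and Myl6b were called whichever library was left out. The adjusted p of Adam8 was 0.0699 without E replicate 2 and 0.0577 without D replicate 1. Slc13a2, Apcdd1 and Padi2 were called without D replicate 2. Apcdd1 was also called without D replicate 1, and none of these 3 was called without either library of group E, with adjusted p from 0.062 to 0.109. Without D replicate 1 it was 0.05 for Slc13a2 and 0.062 for Padi2.

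Genes at 1 CPM or more in NANOS2 KO testes rose as well. Mest, an imprinted gene of the hydrolase fold family, had 20.04 and 10.4 CPM in group E and 1.10 and 1.27 CPM in group D, where the values rest on 3 and 5 counts. Arhgef6, an exchange factor for the GTPases Rac and Cdc42, had 21.8 and 17.9 CPM in group E and 2.57 and 2.55 CPM in group D, a 7.68-fold rise (adjusted p = 0.00367). Adcy2, an adenylyl cyclase, had 67.9 and 51.4 CPM in group E and 12.5 and 11.7 CPM in group D (adjusted p = 0.00315). For these genes the NANOS2 KO medians were 3.98, 22.5 and 5.49 CPM, below both libraries of group E for Mest and Adcy2. Golm1, a Golgi membrane protein, rose 5.63-fold, Mylk3, a myosin light chain kinase with a NANOS2 KO median of 5.70 CPM, 4.99-fold, and Mapk13, a p38 kinase, 4.76-fold. Golm1, Mylk3 and Mapk13 were called in no fit that left out a library of group E or D, with adjusted p from 0.0562 to 0.241. Mest passed only without E replicate 2, with 0.0608 to 0.0696 without the others. Arhgef6 had 0.0538 without D replicate 1, and Adcy2 had 0.0526 without E replicate 1.

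**Figure D3:**
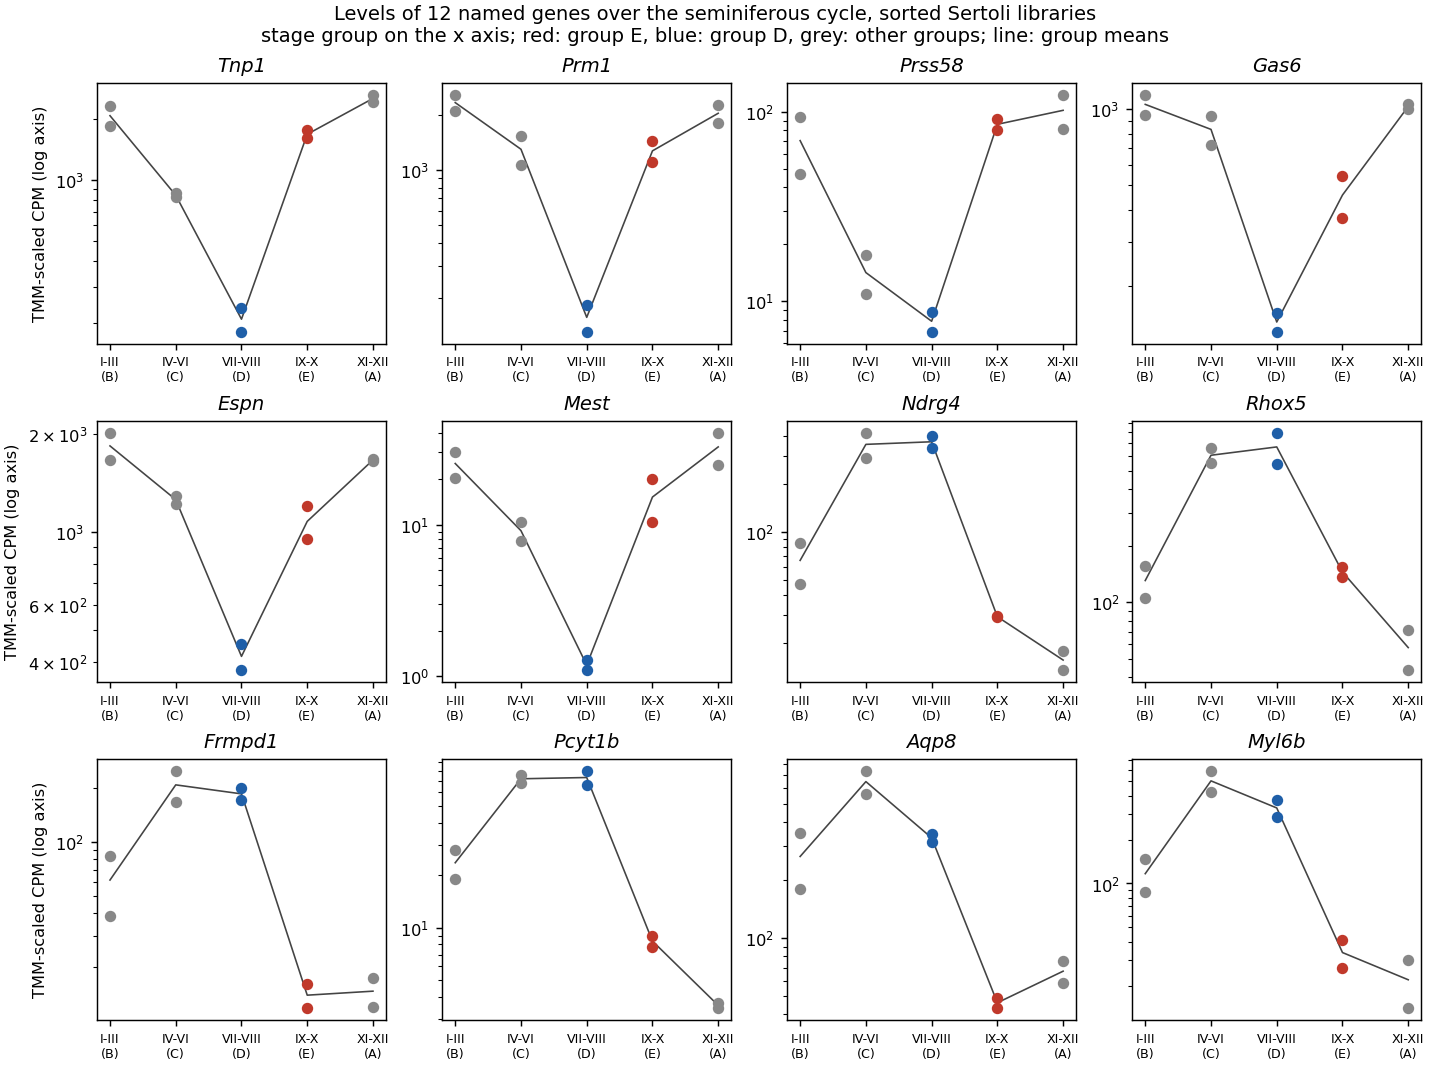
Panels show 12 named genes, with stage groups in cycle order on the x axis and TMM-scaled CPM on a log y axis. Points are libraries, 2 per group, and the line joins group means. Tnp1, Prm1, Gas6, Espn and Mest are lowest in group D, while Ndrg4, Rhox5, Frmpd1, Pcyt1b and Myl6b are high in groups C and D. Aqp8 has means of 265, 650 and 332 CPM in groups B, C and D.

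The plot of levels over the cycle places the step among the other stages. Along B, C, D, E and A, Tnp1 had means of 2066 ± 335, 842 ± 23.8, 208 ± 39.6, 1676 ± 109 and 2509 ± 144 CPM (SD, n = 2 each). Ndrg4 had 66.1 ± 26.5, 352 ± 88.7, 366 ± 42.0, 29.4 ± 0.291 and 15.7 ± 2.98 CPM in the same order. Rhox5 had 131 ± 35.7, 604 ± 78.8, 669 ± 176, 145 ± 12 and 57.6 ± 19.5 CPM. For Ndrg4 and Rhox5 groups C and D overlapped, as did B and E for Rhox5. In the same fit the step from C to D had 90 calls (0.628%), 2 higher in D (0.014%) and 88 lower in D (0.614%). The step from E to A had 0 calls with edgeR, with 729 genes at an unadjusted p under 0.05, against 2432 such genes at the step from D to E. These contrasts share libraries with the step and give no separate test of it.

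Groups A and C took no part in the contrast, although their libraries helped to set the spread. Group A comes after E in the cycle, with 0 calls between them, and group C comes before D. The direction of A over C is therefore a description and no separate test of the step. On log2(mean CPM + 1), group A was above group C for 282 of the 285 genes that rose and below it for 225 of the 225 that fell. Over all genes tested A was above C for 50.9% and below it for 49.1%. The median log2 difference of A over C was 1.04 for the genes that rose and -2.25 for those that fell, against 0.01 over all genes. Of the genes that rose, this held for 159 of the 159 under 1 CPM in NANOS2 KO testes and for 123 of the 126 at 1 CPM or more.

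**Figure D4:**
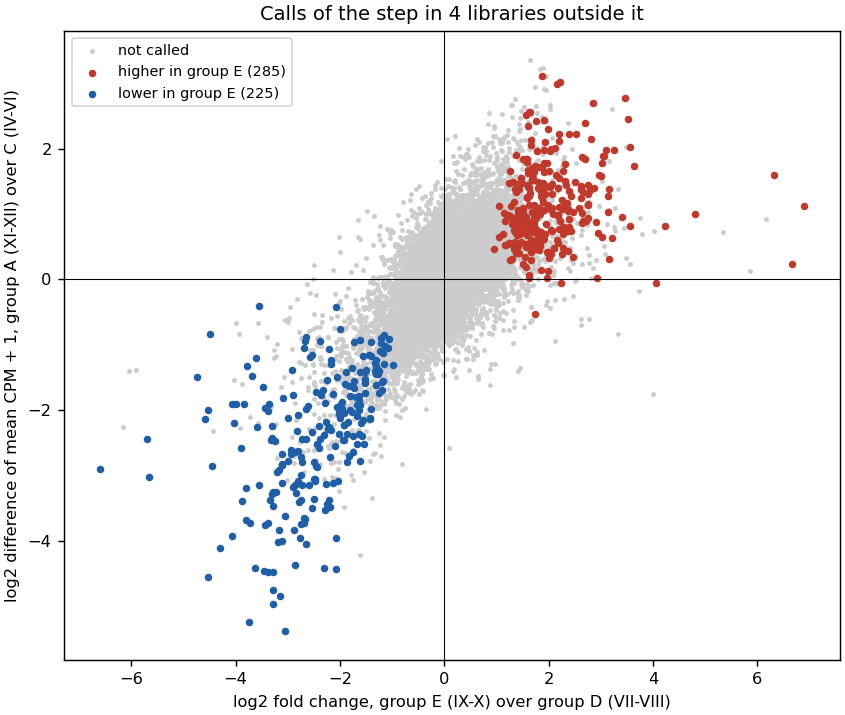
Each point is a gene, with the log2 fold change of group E over group D on the x axis and the log2 difference of mean CPM + 1 of group A over group C on the y axis. Genes that rose (red, 285) lie above 0 on the y axis except 3, and genes that fell (blue, 225) lie below 0.

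Of the 30 Sertoli core genes tested, 1 rose and 1 fell, and the median was -0.07. Espn, an actin-bundling protein of the ectoplasmic specialization, the adhesion by which Sertoli cells hold elongating spermatids, had 1204 and 951 CPM in group E and 378 and 455 CPM in group D. It was 2.59-fold higher in group E (adjusted p = 0.0116). Of the 31 ectoplasmic specialization genes tested, Espn, Pls3 and Pvrl3 rose and Actn3 and Lama3 fell. Among all genes tested 1.99% rose and 1.57% fell. Pls3, an actin bundler, had 72.8 and 38.9 CPM in group E and 18.3 and 15.8 CPM in group D. Pvrl3, or nectin-3, which spermatids present to nectin-2 of the Sertoli cell, had 114 and 130 CPM in group E and 55.0 and 55.6 CPM in group D. Its NANOS2 KO median was 4.17 CPM. Actn3, an alpha-actinin, had 127 and 125 CPM in group E and 551 and 698 CPM in group D, and Lama3, a laminin chain, was 3.40-fold lower. None of these 5 genes was called with any 1 of the 4 libraries left out. Their adjusted p was then 0.0514 to 0.369.

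Of 17 tight junction genes 1 fell, Jam2, an adhesion molecule, with 27.8 and 20.8 CPM in group E and 96.5 and 53.3 CPM in group D (adjusted p = 0.0408). The list's median was -0.17. Of 17 phagocytosis genes 1 rose, Gas6, the ligand that bridges exposed phosphatidylserine to the TAM receptors, with 544 and 372 CPM in group E and 132 and 157 CPM in group D. It was 3.16-fold higher (adjusted p = 0.00683). No lysosome gene of 24 was called, although the list's share of the counts was 0.506 to 0.574% in group E and 0.703 to 0.710% in group D. Psap, the precursor of the saposins, was at -0.57 and the protease Ctsl at -0.64. Gas6 was called without E replicate 2 and had an adjusted p of 0.0512 to 0.111 without the others. Jam2 was called in none of the 4 fits, at 0.056 to 0.322, nor without B replicate 1 (0.0531).

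**Figure D5:**
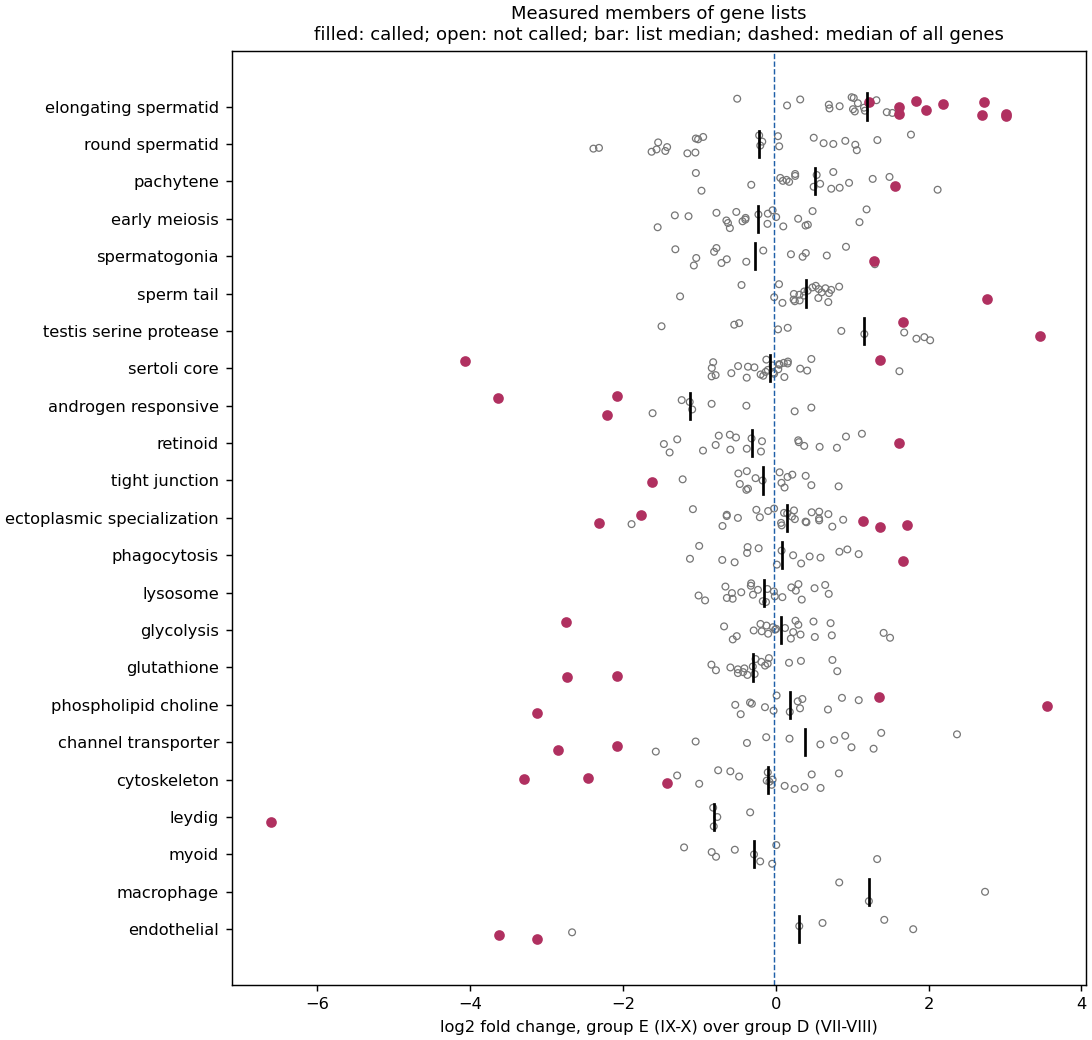
Rows are gene lists and the x axis is the log2 fold change of group E over group D for each measured member. Filled points were called, bars are list medians and the dashed line is the median of all genes. The elongating spermatid list has a median of 1.20 with 10 called members, and the androgen-responsive list a median of -1.12 with 3.

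As the plot of gene lists shows, metabolic and transport lists held from 1 to 3 called members each. Pcyt1b, a rate-setting enzyme of phosphatidylcholine synthesis, had 7.78 and 8.96 CPM in group E and 79.6 and 66.5 CPM in group D, an 8.70-fold fall (adjusted p = 0.00121). Chdh, the mitochondrial enzyme that oxidises choline, had 31.3 and 39.4 CPM in group E and 2.57 and 3.31 CPM in group D, an 11.7-fold rise (adjusted p = 0.0168). Gdpd1, a glycerophosphodiester phosphodiesterase, rose 2.55-fold (adjusted p = 0.0236). These were the 3 called genes of 17 in the choline and phospholipid list, whose median was 0.18. Among all genes tested 3.56% were called. The water channel Aqp8 had 48.8 and 43.1 CPM in group E and 315 and 348 CPM in group D (7.21-fold lower, adjusted p = 0.00187), and the chloride channel Ano1 had 55.8 and 83.5 CPM in group E and 370 and 219 CPM in group D. Pcyt1b and Aqp8 were called whichever library was left out. Chdh, Gdpd1 and Ano1 were called in none of the 4 fits, with adjusted p from 0.0735 to 0.337, and Ano1 had 0.0505 with limma on log2(CPM + 0.1).

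Slc16a3, a lactate exporter, had 7.59 and 9.37 CPM in group E and 69.7 and 44.9 CPM in group D, and was the 1 called gene of 24 in glycolysis and lactate export. Plin2, a coat protein of lipid droplets, had 18.3 CPM in both libraries of group E and 56.1 and 63.0 CPM in group D, the 1 called gene of 20 in the lipid list. Gsta1, called with Gsta2 among 21 glutathione genes, rested on 6 counts in each library of group E. Slc16a3 was called without D replicate 2. Otherwise these 3 genes had adjusted p of 0.0512 to 0.249 with a library of either group left out. Of 19 cytoskeleton genes 3 fell, against 1.57% of all genes that fell. These were Mical2, Myl6b and the microtubule regulator Stmn1. Mical2, an actin oxidase, had 45.3 and 31.7 CPM in group E and 213 and 209 CPM in group D. Mical2 had an adjusted p of 0.0614 without E replicate 2, and Stmn1 was called in none of the 4 fits, at 0.062 to 0.186.

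Signalling lists held few calls. Jag1, a Notch ligand that is also in the list of niche growth factors, had 31.3 and 26.2 CPM in group E and 5.87 and 10.5 CPM in group D (adjusted p = 0.0335). Of the other 11 Notch genes tested none was called, and the list's median was -0.82. Aldh1a3, a retinoic acid-synthesising enzyme, had 48.2 and 32.5 CPM in group E and 15.4 and 11.2 CPM in group D (adjusted p = 0.0455), the 1 called gene of 21 in the retinoid list. None of 20 genes of FSH, activin and AMH signalling was called, with Amhr2 at -0.46 and Gnas at 0.19. The AP-1 gene Fosl2 fell by 2.20 on the log2 scale. Hspa1l, a testis heat shock gene under 1 CPM in NANOS2 KO testes, rose to 644 and 597 CPM in group E, against 112 and 182 CPM in group D (adjusted p = 0.00585). Tmprss6, a membrane serine protease, fell to 6.42 and 7.08 CPM in group E, against 37.8 and 53.8 CPM in group D. Hspa1l had an adjusted p of 0.0675 without E replicate 1 and 0.081 without D replicate 1. Jag1, Aldh1a3, Fosl2 and Tmprss6 were called in none of the 4 fits, with adjusted p from 0.0612 to 0.369, Tmprss6 had 0.057 with limma on log2(CPM + 0.1), and Aldh1a3 had 0.0503 without C replicate 2. None of 24 cell cycle genes was called.

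Alas2, the heme synthesis enzyme of red cells, had 224 and 95.2 CPM in group E and 37.0 and 31.4 CPM in group D (adjusted p = 0.0122). It was the only 1 of 7 blood genes in the table that was tested, and the band 3 gene Slc4a1 was at 0 in all 4 libraries. The blood list took 0.0105 to 0.0223% of the counts in group E and 0.00387 to 0.00406% in group D, and most of these counts were those of Alas2 itself. Alas2 had means of 541, 748 and 565 CPM in sorted groups A, B and C. Its median in NANOS2 KO whole testes was 17.3 CPM. Which cells its transcripts came from was not tested. Ftmt, mitochondrial ferritin, had 3.11 and 2.08 CPM in group E and 11.7 and 16.1 CPM in group D. Alas2 was called without E replicate 2, at 0.107 to 0.175 without the others, and Ftmt in none of the 4 fits, at 0.104 to 0.26.

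Lists of markers of the remaining testis cells took small shares of the counts. Leydig genes took 0.0184 to 0.0263% of the counts in group E and 0.0318 to 0.0459% in group D, with Insl3 and Lhcgr at 0 in all 4 libraries. Hsd3b1, a steroidogenic Leydig enzyme, had no read in group E and 3.67 and 2.80 CPM in group D, so it was at least 10.7-fold lower in group E, where the 2 libraries together were given a floor of 3 counts. It was the 1 called gene of 5 Leydig genes tested. Among all genes tested 1.57% fell. Endothelial genes took 0.00305 to 0.00403% in group E and 0.00391 to 0.00481% in group D, and of 7 tested Cdh5 and Tek fell, both resting on 7 counts or fewer per library in group E. That list's median was 0.31, with 4 of 7 above 0, among them Flt1 at 1.80 and Cd34 at 1.42, neither called. Macrophage genes took 0.0285 to 0.0343% in group E and 0.0149 to 0.0160% in group D, with Tyrobp at 0. Most of these counts were those of Aif1 and Mrc1. None of the 3 tested was called, Aif1 at 1.22 and Mrc1 at 0.83. None of 9 peritubular myoid genes was called (Mylk at -0.84, Actg2 at 1.33), and none of 6 stromal genes (Fbln1 at 0.42, Col1a2 at -0.88). In group E Aif1 had 139 and 193 CPM, Actg2 141 and 139 CPM, and Fbln1 128 and 138 CPM. Their NANOS2 KO medians were lower, at 9.54, 7.96 and 7.9 CPM. Those of Mrc1, Mylk and Col1a2 were above both libraries of group E, at 164, 465 and 382 CPM. Which cells Aif1, Actg2 and Fbln1 came from was not tested. Hsd3b1, Cdh5 and Tek were called in none of the 4 fits, with adjusted p from 0.0534 to 0.188, and Tek had 0.0566 with limma on log2(CPM + 0.1). The part of these cells, and of the germ cell transcripts, in the changes of the other genes was not tested.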

How the data were processed

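The authors' deposited table of sorted libraries holds raw counts for 43280 gene rows, made with Bowtie, TopHat, Cufflinks and mm10, per the submitters' processing notes. How reads were counted is not given in the sources used here. Their deposited table of NANOS2 KO libraries gives CPM, used as deposited; the sorted table of the same kind equals CPM from the counts to within 0.0005. After filterByExpr and TMM scaling, counts were fitted over all 10 sorted libraries by group with edgeR 4.0.16 quasi-likelihood tests in R 4.3.3, with Benjamini-Hochberg adjustment over 14331 genes; E minus D was the contrast. The code was tested on simulated data. CPM in the text is TMM-scaled for sorted libraries and unscaled for NANOS2 KO.

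Genes named are the 4 markers, the largest called changes in each class of NANOS2 KO level (split at 1 CPM; mean log2 CPM 4 or more), and up to 3 called members of each list and direction, or its 2 most expressed where none was called; clones, predicted genes and 27 symbols turned into dates were passed over. Some genes that this rule takes are not reported here. Genes were matched by symbol to GENCODE M21, which held 95.1% of those tested. Members and lists were chosen with earlier results of these data known. Alternatives used DESeq2 1.42.0, limma 3.58.1 on log2(CPM + 1) or + 0.1, RLE scaling, no filter, and left-out libraries, where a lone library is assumed to vary like the other groups.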

Additional observations from a re-analysis of the deposited data

How the results depend on the processing

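In all 510 calls the libraries of group E lay apart from those of group D, so leaving out a library could hardly reverse a sign. The run over genes at 1 CPM or more in NANOS2 KO did not test the other calls. Within these limits, none of the 510 calls changed sign in an alternative run that tested it. The count was 1180 with no filter (676 higher, 504 lower), 839 with DESeq2 (478 and 361), 1875 from the 4 libraries of D and E alone (983 and 892) and 316 over genes at 1 CPM or more in NANOS2 KO (137 higher). With the replicate number as a block it was 874 (499 and 375). The replicate differences of D and E correlated at 0.251. Over all pairs of groups the correlation ran from -0.111 to 0.43. It was 0.143 to 0.43 among A, B, D and E, and negative only in pairs with C. The main fit did not take the numbers as pairing, so a difference shared by replicate number is not removed in it. The share under 1 CPM in NANOS2 KO was 46.8% of the rises from 4 libraries and 64.7% with scaling by the Sertoli core, a choice made after seeing the data; of the falls it was 26.4% with no filter and 22.1% with the block. With 1 library left out, calls ran from 38 to 842, rises from 13 to 466 and falls from 13 to 376, and the shares from 50.5 to 84.6% and from 7.69 to 20.5%. Of 58 called named genes 12 passed in every such fit and 40 under every other setting. Depth limits genes near 3 counts.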

Other observations

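The following groups hold further called genes. They were put together after the values had been seen, so their counts are descriptions and carry no support of their own. Over all genes tested 1.99% rose and 1.57% fell. Of 12 genes tested for feedback on ERK signalling, 3 rose and none fell, with a median log2 fold change of 0.77. Spry1 had 49.6 and 40.0 CPM in group E and 9.54 and 10.2 CPM in group D (edgeR adjusted p = 0.00381), and Spry4 had 28.6 and 22.9 CPM in group E and 6.60 and 6.37 CPM in group D (adjusted p = 0.00733). Sprouty proteins restrain receptor tyrosine kinase signalling. Etv5 was the third. With a library left out, Spry1 had an adjusted p of 0.0536 without E replicate 1 and 0.0577 without D replicate 1, and Spry4 of 0.0514 to 0.114 without any 1 of the 4.

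Of 19 enzymes of amino acid and related metabolism, 7 fell and 1 rose, with a median of -0.48. The list also holds enzymes outside amino acid metabolism: Gpd1 and Ldhd, which fell, and Gpd2, the 1 that rose. Ivd, of leucine breakdown, had 81.5 and 66.6 CPM in group E and 319 and 396 CPM in group D. Oat, ornithine aminotransferase, had 134 and 141 CPM in group E and 509 and 602 CPM in group D, and Cdo1, of cysteine oxidation, had 28.4 and 28.1 CPM in group E and 112 and 119 CPM in group D. The glycerol-3-phosphate dehydrogenases went opposite ways: the cytosolic Gpd1 had 107 and 81.8 CPM in group E and 485 and 541 CPM in group D, and the mitochondrial Gpd2 had 357 and 325 CPM in group E and 75.6 and 137 CPM in group D. Ivd had an adjusted p of 0.0514 and Gpd1 of 0.0562 without E replicate 2. Oat had 0.107 without E replicate 1 and 0.0703 without E replicate 2. Cdo1 had 0.0639 to 0.143 without any 1 of the 4 libraries, Gpt2, Suox and Ldhd had 0.102 to 0.245, and Gpd2 passed only without D replicate 2. Gpt2 had 0.0981 with scaling by the Sertoli core genes, and Suox 0.0505 with limma on log2(CPM + 0.1).

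Of 12 genes known to respond to steroid receptors, Fkbp5, Klf15, Ndrg1 and Rhox5 fell, with a median of -0.57. Fkbp5 had an adjusted p of 0.0806 to 0.316 and Ndrg1 of 0.0669 to 0.164 without any 1 of the 4 libraries, and Fkbp5 had 0.174 with scaling by the Sertoli core genes. Klf15 had 5.64 and 4.58 CPM in group E and 30.1 and 32.1 CPM in group D, and its adjusted p was 0.0526 without E replicate 1 and 0.0579 without E replicate 2. The calcium-binding S100a1 had 20.6 and 16.7 CPM in group E and 139 and 172 CPM in group D (adjusted p = 0.00187), and it was called whichever library of E or D was left out.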
